A study of Homo sapiens with 4 samples.

Results

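The phase II conjugation enzymes described here are the UDP-glucuronosyltransferases (UGT), the cytosolic and kappa glutathione transferases (GST) and the cytosolic sulfotransferases (SULT). Their genes were selected by symbol among protein-coding genes. The symbol rule used no measured values, but the members were chosen with earlier results of these data known. The selection held 53 genes, of which 52 had a position on chromosomes 1 to 22 and X and were analysed, among 19839 protein-coding genes in all. They comprised 22 genes with UGT symbols, called glucuronosyltransferases below, 17 glutathione transferases and 13 sulfotransferases. The 3 UGT3 and UGT8 genes are counted with the glucuronosyltransferases by symbol alone, and had no mark at a boundary. GSTT1 was listed on a sequence outside the primary chromosomes and was not analysed here.

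Histone marks were mapped by chromatin immunoprecipitation and sequencing (ChIP-seq) in MHCC97L, an established human hepatocellular carcinoma cell line, labelled wild type and untreated. The marks were H3K4me3, found at active promoters, H3K4me1, found at enhancers and promoter flanks, and H3K27ac, found at active promoters and enhancers. There was 1 library per mark and no replicate, and a library of input chromatin was not analysed here. The deposited lists held 46078 H3K4me3, 70028 H3K27ac and 86366 H3K4me1 peak summits on these chromosomes, each scored by the −log10 of a p-value or q-value (which of them is unstated). The score ranks summits within a list, is not a signal level, and is not compared between marks. The median score was 8.23 for H3K4me3, 8.40 for H3K27ac and 4.58 for H3K4me1. Scores took 4044, 4706 and 2350 distinct values in these lists, so separate summits can carry the same score. Read depth is unknown.

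The label of a liver cell was read against fixed markers. Of 10 hepatocyte genes 3 had H3K4me3 and H3K27ac at a gene boundary, beside 47.7% of all protein-coding genes. HNF4A was among them, and so was TF, whose window is shared with TOPBP1 and LOC124909487, whereas ALB, TTR, APOB and APOA2 had no summit of any mark. Of 4 cholangiocyte genes, SOX9 alone had both marks. Of 13 stellate, endothelial and leukocyte genes, CD68 alone had both at a boundary, which it shares with EIF4A1 and MPDU1. Over the whole gene 4 hepatocyte genes and 3 of these 13 had both, beside 61.6% of all protein-coding genes. The 3 were CD68, PECAM1 and PTPRC, and PECAM1 also had H3K27ac at 43.9 at a boundary.

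Phase II enzymes join a polar group to drugs, hormones, bilirubin, bile acids and reactive metabolites so that these can be excreted. The UGT1A and UGT2 enzymes sit in the endoplasmic reticulum and use UDP-glucuronic acid. Glutathione transferases use reduced glutathione, and sulfotransferases use the activated sulfate PAPS. Many of these genes lie in tandem clusters of close copies, and the UGT1A enzymes come from a single locus in which each enzyme has its own leading exon and promoter and all share the remaining exons.

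A gene was said to carry a mark at a boundary when 1 of its summits fell no further than 1000 bp from either end of that gene. H3K4me3 lay at a boundary of 20 of 52 members (38.5%, 95% Wilson interval 26.5 to 52.0), beside 57.1% of all protein-coding genes. H3K27ac lay at a boundary of 23 members (44.2%, 31.6 to 57.7), beside 54.4%. H3K4me1 lay at a boundary of 16 members (30.8%, 19.9 to 44.3), beside 12.5%. H3K4me3 and H3K27ac together at the same boundary, called the pair below, were found in 18 members (34.6%, 23.2 to 48.2), beside 47.7%. No mark lay at a boundary of 22 members (42.3%, 29.9 to 55.8), beside 34.8%. The background share lay above the members' interval for H3K4me3, below it for H3K4me1, and inside it for H3K27ac, for the pair and for genes without a mark. With windows of 500 and 2500 bp the pair was found in 11 (21.2%) and 21 (40.4%) members, beside 31.3% and 56.1% of all protein-coding genes. With both scores at 10 or more it was found in 11 (21.2%), beside 40.5%. The intervals cover counting error only. Neighbouring members share summits, so the genes are not independent, and no test was made.

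Glutathione transferases had the pair at about the share of all protein-coding genes, 47.7%, and sulfotransferases had H3K4me1 above the 12.5% of all genes. The pair was found in 8 of 17 glutathione transferases (47.1%, 26.2 to 69.0), 6 of 22 glucuronosyltransferases (27.3%, 13.2 to 48.2) and 4 of 13 sulfotransferases (30.8%, 12.7 to 57.6). The 3 intervals overlap, so the order of the families for the pair was not resolved. H3K4me1 lay at a boundary of 8 sulfotransferases (61.5%, 35.5 to 82.3), 6 glucuronosyltransferases (27.3%, 13.2 to 48.2) and 2 glutathione transferases (11.8%, 3.29 to 34.3). Among the 8, SULT1C2, SULT1C3 and SULT1C4 form a cluster, and SULT1A3 and SULT1A4 are near-identical copies beside SLX1A and SLX1B. SULT6B1, SULT1A2 and SULT2B1 share a window with another protein-coding gene at their other boundary. All 6 glucuronosyltransferases are UGT1A genes of 1 overlapping locus, with 0 of 10 UGT2 genes marked. For H3K4me1 the interval of the sulfotransferases lay above that of the glutathione transferases at boundaries, but at annotated starts, with 5 of 10 (23.7 to 76.3) and 1 of 16 (1.11 to 28.3), the intervals overlap. H3K4me3 was at a boundary of 10 glutathione transferases, 6 glucuronosyltransferases and 4 sulfotransferases, and H3K27ac of 10, 8 and 5.

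**Figure D1:**
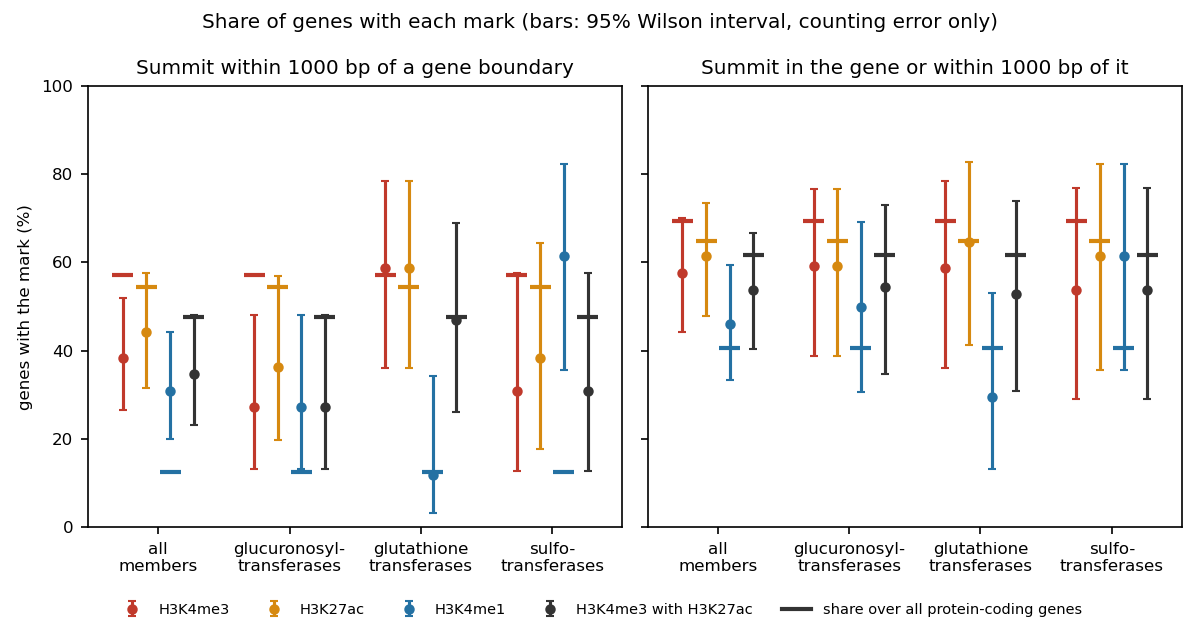
Share of genes with each mark (vertical axis, percent) over all 52 members and in each family, at a gene boundary (left) and at any place in or up to 1000 bp around the gene (right). Points are shares with their 95% Wilson interval, and the thick dashes are the shares over all protein-coding genes. At boundaries the sulfotransferases stand at 61.5% for H3K4me1 with the background at 12.5%, and over whole genes every background share lies inside the interval of each family.

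Over the whole gene, with marks counted at any place from 1000 bp before it to 1000 bp after it, the members as a whole came closer to other genes. H3K4me3 was then found in 30 members (57.7%) beside 69.4% of all protein-coding genes, H3K27ac in 32 (61.5%) beside 64.9%, and H3K4me1 in 24 (46.2%) beside 40.6%. Both H3K4me3 and H3K27ac were found in 28 members (53.8%, 40.5 to 66.7) beside 61.6%. No mark of any kind was found in 16 members (30.8%) beside 25.3%. Among glucuronosyltransferases the count with both marks went from 6 at a boundary to 12 over the gene, among sulfotransferases from 4 to 7, and among glutathione transferases from 8 to 9. Within the UGT1A locus this count repeats the same summits for several genes.

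The families also stood at different places in the score lists. The median best H3K4me3 score was 44.9 over the 10 marked glutathione transferases, 25.5 over 6 glucuronosyltransferases and 7.77 over 4 sulfotransferases, with 52.2 over all marked protein-coding genes. The median best H3K27ac score was 66.2 over the 5 marked sulfotransferases, 18.4 over 8 glucuronosyltransferases and 18.0 over 10 glutathione transferases, with 30.1 over all marked genes. The median best H3K4me1 score was 6.30, 5.62 and 2.64 in the marked glucuronosyltransferases, sulfotransferases and glutathione transferases, with 4.75 over all marked genes. The glucuronosyltransferases marked by H3K4me1 are all UGT1A genes of 1 locus. Sulfotransferases thus ranked low in the H3K4me3 list and high in the H3K27ac list within 1000 bp. With a window of 2500 bp the best H3K4me3 score was 51.6 for SULT6B1, 52.5 for SULT1A3 and 18.8 for SULT1A4. SULT1C2 stayed at 42.7. Over the whole gene with 1000 bp around it, SULT6B1, SULT1A3 and SULT1A4 stayed at 9.40, 6.13 and 3.23. Their higher summits thus lie over 1000 bp outside these genes. CEBPZOS, SLX1A and SLX1B lie within 2500 bp, so those summits cannot be given to the sulfotransferases. The median over all genes was not taken at 2500 bp. These medians describe few genes, and a pair of near-identical copies, SULT1A3 and SULT1A4, is among the sulfotransferases.

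**Figure D2:**
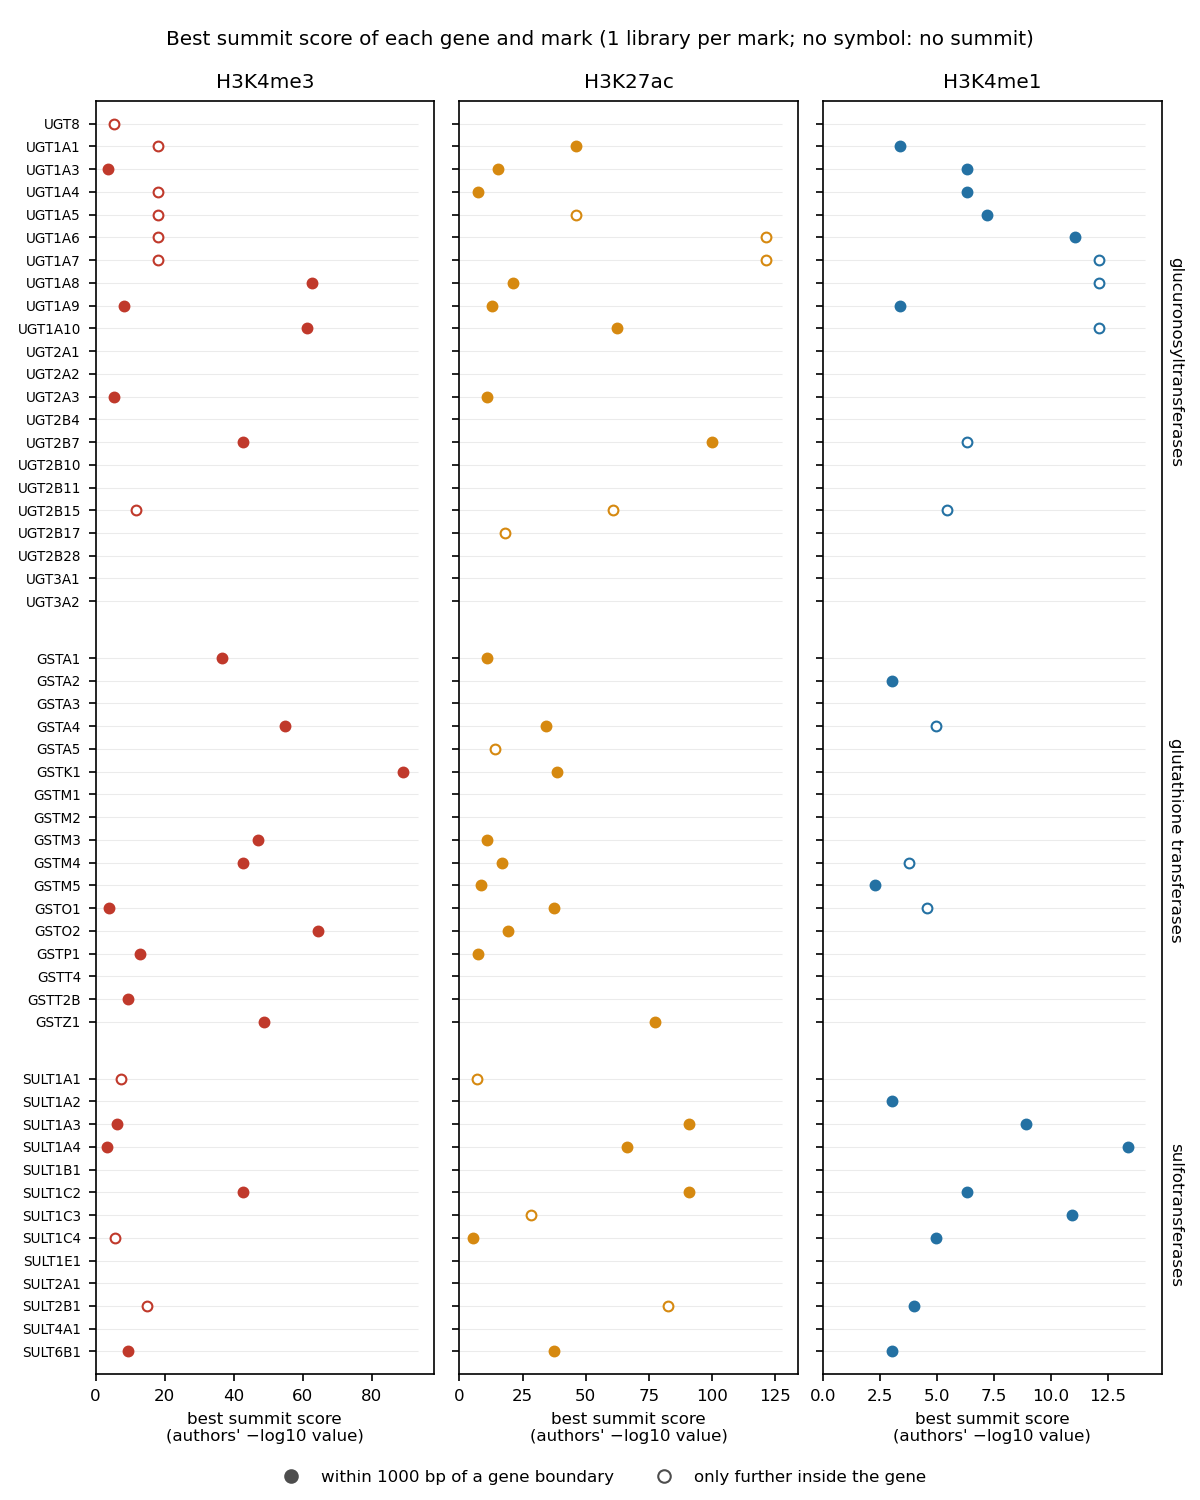
Best summit score of each member (rows) in the H3K4me3, H3K27ac and H3K4me1 lists (panels, authors' −log10 value, each panel on its own scale). Filled circles are summits within 1000 bp of a gene boundary, open circles are genes whose only summits lie further inside, and rows without a circle have no summit of that mark. GSTK1 has the highest H3K4me3 score at 89.0, and the rows without any circle include most UGT2B genes.

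The glutathione transferases with the pair span 6 classes. GSTK1, the kappa class enzyme of mitochondria and peroxisomes (hg38, chr7:143263441-143269115), had the highest H3K4me3 score of all members, 89.0 at 139 bp from its boundary, with H3K27ac at 38.7. That H3K4me3 score stood at percentile 93.2 among marked protein-coding genes. The gene TMEM139-AS1 overlaps GSTK1. GSTZ1, which isomerises maleylacetoacetate in tyrosine breakdown (chr14:77321036-77331597), had H3K4me3 at 48.7 and H3K27ac at 77.2, the highest H3K27ac score of the family at a boundary. Its boundary is 153 bp from that of POMT2, a protein O-mannosyltransferase gene, and the summits cannot be given to either gene alone. GSTP1, the pi class enzyme (chr11:67583812-67586653), had both marks at its start with low scores, 12.7 for H3K4me3 and 7.43 for H3K27ac, the latter at percentile 8.42 among marked genes.

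The omega class genes GSTO1 (chr10:104254173-104267455) and GSTO2 (chr10:104269184-104304950), which reduce dehydroascorbate and methylated arsenic, follow each other with 1729 bp between them. GSTO2 had the pair at its start, with 64.4 for H3K4me3 and 19.3 for H3K27ac. GSTO1 had H3K27ac at 37.3 at its starting end and H3K4me3 at 3.98 at its other end, and so lacked the pair at a boundary. The annotated start of GSTO1 lies 719 bp inside its outer limit, and counted from there GSTO1 had the pair, with H3K4me3 at 64.4. Its summit and that of GSTO2 are separate summits with equal scores. A long noncoding RNA gene, LOC124902497, overlaps GSTO1 and ends close to the start of GSTO2.

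The mu class genes lie in the order GSTM4, GSTM2, GSTM1, GSTM5 and GSTM3 over 84.9 kb of chromosome 1, and the marked starts are the outer ones. GSTM4 (chr1:109656099-109667727) had H3K4me3 at 42.7 and H3K27ac at 16.7. GSTM3 (chr1:109733937-109741038) had H3K4me3 at 47.2 and H3K27ac at 10.8. GSTM5 (chr1:109711751-109718268) had H3K27ac at 8.61 and H3K4me1 at 2.28 at its end and no H3K4me3. GSTM1 and GSTM2 had no summit of any mark, and their nearest H3K4me3 summits lay 29222 and 9462 bp away. The strongest H3K27ac summit of the cluster, with a score of 57.4, lay between GSTM5 and GSTM3, beside an H3K4me1 summit of 4.58. GSTM1 is known to be deleted in many people, and an absent gene and an unmarked gene give the same empty entry in a summit list.

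The alpha class genes lie over 245 kb of chromosome 6 in the order GSTA2, GSTA1, GSTA5, GSTA3 and GSTA4. GSTA4, which conjugates the lipid peroxidation product hydroxynonenal (chr6:52977953-52995284), had the pair with H3K4me3 at 54.9 and H3K27ac at 34.5. The small nuclear RNA gene RN7SK begins 336 bp beyond the same boundary. GSTA1, the main alpha class enzyme of liver (chr6:52791371-52803816), had H3K4me3 at 36.8 and H3K27ac at 10.8, at 148 and 118 bp inside its start. GSTA2 (chr6:52750087-52763475) had a single H3K4me1 summit of 3.01 at its start, and its nearest H3K4me3 and H3K27ac summits lay 24524 and 3470 bp from a boundary. GSTA5 had H3K27ac at 14.3 inside the gene and no other mark, and GSTA3 had none. Strong H3K27ac summits lay between the genes, with scores of 77.2 between GSTA3 and GSTA4, 54.1 between GSTA2 and GSTA1, and 44.8 between GSTA5 and GSTA3. The interval between GSTA5 and GSTA3 also held an H3K4me3 summit of 20.2, the only one between genes of this cluster.

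GSTA1 and GSTA2 are shown because neighbours with nearly the same promoter had different marks. The 250 bases before the annotated start (RefSeq, GRCh38.p14, minus strand, 5′ to 3′) were identical at 243 positions, or 97.2%. Capitals mark the 7 bases that differ.
GSTA1, chr6:52803817-52804066: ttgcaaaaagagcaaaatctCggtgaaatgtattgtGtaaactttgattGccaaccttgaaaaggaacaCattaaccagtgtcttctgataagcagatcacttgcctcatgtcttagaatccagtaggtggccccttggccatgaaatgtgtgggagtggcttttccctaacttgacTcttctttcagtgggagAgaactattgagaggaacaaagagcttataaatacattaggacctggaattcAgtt
GSTA2, chr6:52763476-52763725: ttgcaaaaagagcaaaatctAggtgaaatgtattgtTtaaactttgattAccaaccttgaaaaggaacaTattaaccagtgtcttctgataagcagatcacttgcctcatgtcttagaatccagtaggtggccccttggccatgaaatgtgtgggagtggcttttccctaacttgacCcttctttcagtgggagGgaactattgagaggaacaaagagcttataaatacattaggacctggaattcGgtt
Reads from such copies can be hard to place, and the treatment of reads with several matches is unstated in the sources used here.

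Of the theta class, GSTT2B (chr22:23957414-23961206) had an H3K4me3 summit of 9.40 at 283 bp beyond its upper boundary and no H3K27ac, and GSTT4 had no mark. GSTT2B is a close copy of GSTT2, so this summit carries the same limit. In all, GSTM1, GSTM2, GSTA3 and GSTT4 were the glutathione transferases without any mark.

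The UGT1A locus (chr2:233617633-233773300) holds 9 overlapping members that share 1 end, over 155.67 kb. It contained 10 H3K4me3, 31 H3K27ac and 61 H3K4me1 summits. Among 2352 protein-coding genes of 100 to 250 kb, whose median was 2 H3K4me1 summits, UGT1A8, the gene that spans the locus, stood at percentile 99.1 for H3K4me1, 98.4 for H3K27ac and 93.6 for H3K4me3. H3K4me1 was unevenly spread. The 54.3 kb from the UGT1A8 start to the UGT1A9 start held 7 H3K4me1 summits, and the 101 kb from there to the shared end held 54, or 12.9 and 53.3 per 100 kb.

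The strongest H3K4me3 summits lay at the other side of the locus. UGT1A8 and UGT1A10, enzymes known mainly from the intestine, had the highest H3K4me3 scores of the locus. UGT1A8 had H3K4me3 at 62.9 and H3K27ac at 21.3, and UGT1A10 had H3K4me3 at 61.3 and H3K27ac at 62.2. Neither had H3K4me1 at its boundary. UGT1A10 has no entry among the annotated starts used here, and its values are those at its lower boundary. UGT1A9, an enzyme of liver and kidney that conjugates phenols, had the pair at lower scores, 8.32 and 13.1, and UGT1A3, which conjugates bile acids, had 3.47 and 15.5.

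UGT1A1, the enzyme that conjugates bilirubin, had H3K27ac at 46.4 within 141 bp of its start and H3K4me1 at 3.39. Its nearest H3K4me3 summit, with a score of 18.0, lay 1174 bp inside the gene and so just outside the window. With a window of 2500 bp UGT1A1 carries the pair. UGT1A4, which conjugates amines, had H3K27ac at 7.53 and H3K4me1 at 6.30 without H3K4me3. UGT1A6, which conjugates small phenols, had H3K4me1 at 11.1 and UGT1A5 had H3K4me1 at 7.19, with no other mark at a boundary. UGT1A7 had no mark at its start, and its gene body holds the summits of the genes downstream. The strongest H3K27ac summits of the locus, 121 and 91.0, lay 8373 and 16993 bp after the UGT1A6 start and before the UGT1A5 start, at no annotated start of a member. Both ranked above every H3K27ac summit at a UGT1A boundary.

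**Figure D3:**
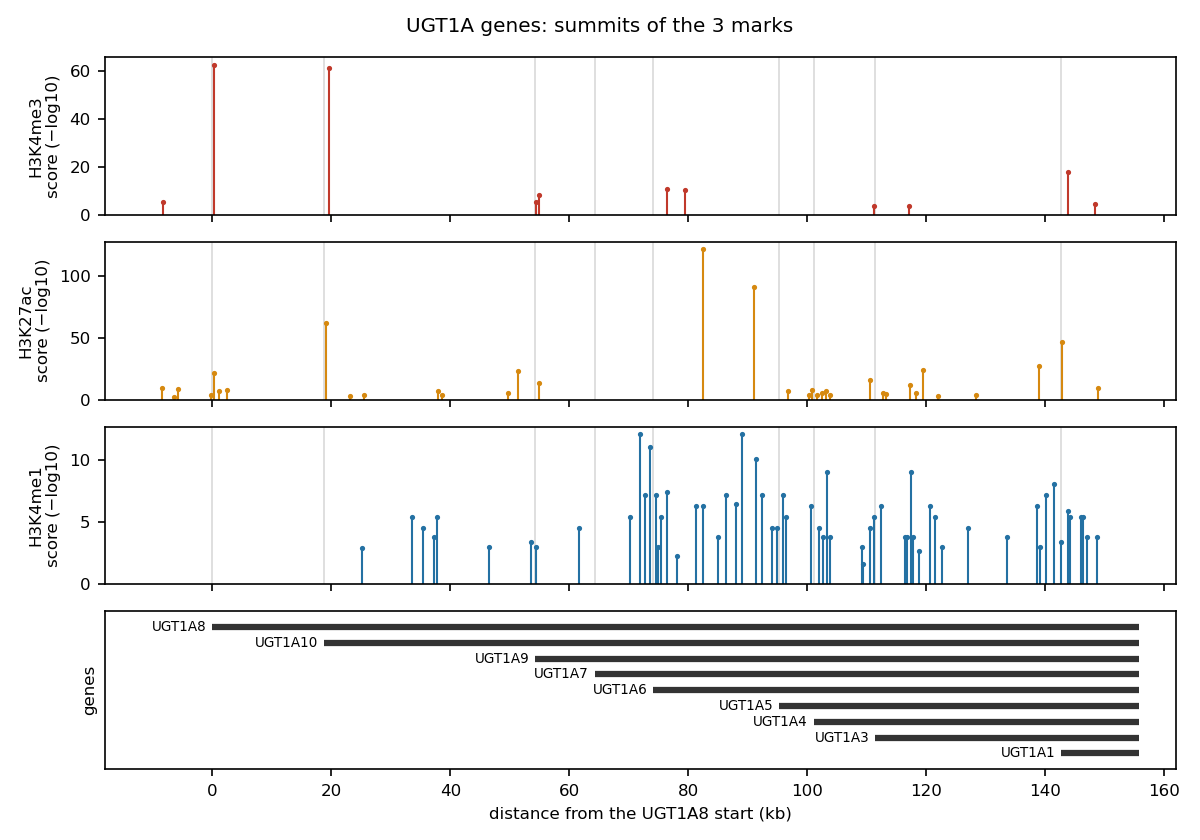
Summit scores (vertical axes, authors' −log10 value) of the 3 marks by distance from the UGT1A8 start (horizontal axis, kb), with the 9 overlapping genes as bars below and their lower boundaries as grey lines. H3K4me3 is highest near the lower boundaries of UGT1A8 and UGT1A10, with scores of 62.9 and 61.3, whereas 54 of 61 H3K4me1 summits lie from the UGT1A9 start to the shared end.

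The promoters of UGT1A3, UGT1A4 and UGT1A5 are shown because these neighbours are 87.6% to 90.0% identical over 250 upstream bases and differed in marks. UGT1A3 had the pair with H3K4me1, UGT1A4 had H3K27ac with H3K4me1, and UGT1A5 had H3K4me1 alone. The last 150 bases before each annotated start (RefSeq, GRCh38.p14, plus strand, 5′ to 3′) are given, with CpG in capitals.
UGT1A3, chr2:233728892-233729041: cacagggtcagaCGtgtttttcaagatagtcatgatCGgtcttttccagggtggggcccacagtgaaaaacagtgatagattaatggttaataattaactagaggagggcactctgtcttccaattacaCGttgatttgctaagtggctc
UGT1A4, chr2:233718586-233718735: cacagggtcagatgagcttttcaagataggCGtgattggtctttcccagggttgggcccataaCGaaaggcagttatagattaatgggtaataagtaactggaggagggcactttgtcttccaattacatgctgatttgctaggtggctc
UGT1A5, chr2:233712757-233712906: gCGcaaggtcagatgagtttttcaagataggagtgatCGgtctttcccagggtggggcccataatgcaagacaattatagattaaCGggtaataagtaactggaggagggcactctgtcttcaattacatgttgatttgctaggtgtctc
The annotated 300-base windows of UGT1A3 and UGT1A4 held 4 CpG each and that of UGT1A5 held 6.

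The UGT2 genes on chromosome 4 fell into a marked and an unmarked stretch. From UGT2B17 to UGT2B7 (chr4:68537173-69112987, 576 kb) there were 16 H3K4me3, 55 H3K27ac and 26 H3K4me1 summits. From UGT2B11 to SULT1E1 (chr4:69199951-69860145, 660 kb) there was 1 H3K27ac summit with a score of 4.25 and no summit of the other marks. The second stretch holds UGT2B11, UGT2B28, UGT2B4, the overlapping pair UGT2A1 and UGT2A2, SULT1B1 and SULT1E1, none of which had a mark. UGT2B4 is a bile acid and steroid enzyme of normal liver, and SULT1E1 sulfates estrogens.

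UGT2B7, which conjugates morphine and many steroids (chr4:69051375-69112987), had H3K4me3 at 42.7 and H3K27ac at 99.8 at its outer boundary. That H3K27ac score stood at percentile 97.6 among marked protein-coding genes and was the highest of any member at a boundary. The annotated start in the promoter table lies 45099 bp further in. There H3K27ac was found at 40.3, at 182 bp, and the nearest H3K4me3 summit lay 14432 bp away. The noncoding gene LOC105377265 overlaps the marked boundary, so the pair there cannot be given to UGT2B7 alone. The H3K4me3 summit lay 962 bp from the boundary, just inside the window.

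UGT2A3 (chr4:68928463-68951804) had the pair at its start with low H3K4me3, 5.30 beside H3K27ac at 10.8. UGT2B15, an androgen-conjugating enzyme, had no mark at a boundary but H3K4me3 at 11.6, H3K27ac at 60.6 and H3K4me1 at 5.42 inside the gene, with the H3K4me3 summit 9914 bp from its nearer end. UGT2B17, its close copy, had H3K27ac at 18.0 inside the gene alone. UGT2B10 had no mark. Outside the clusters, UGT8, which makes galactosylceramide in myelin, had H3K4me3 at 5.30 inside the gene and nothing at its boundaries, and UGT3A1 and UGT3A2 had no mark. UGT2B17 and UGT2B28, like GSTM1, are known to be deleted in some people.

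**Figure D4:**
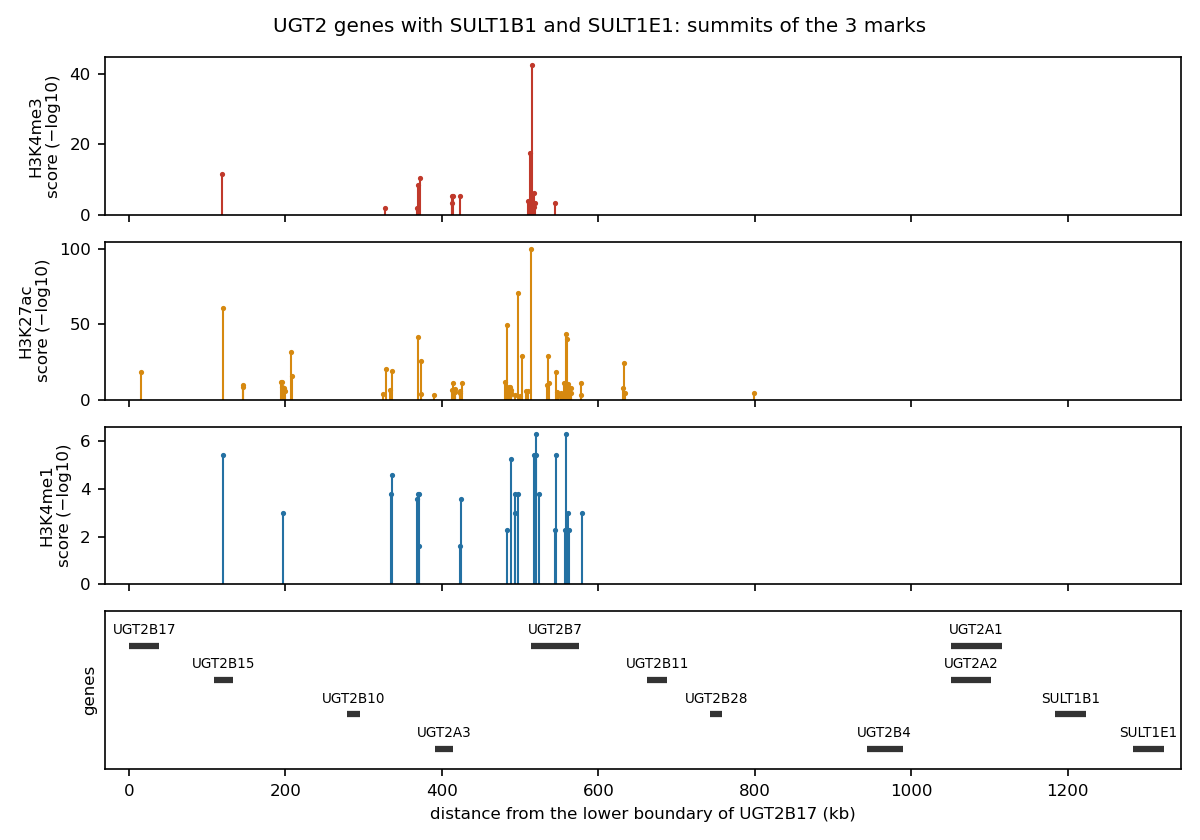
Summit scores (vertical axes, authors' −log10 value) of the 3 marks by distance from the lower boundary of UGT2B17 (horizontal axis, kb), with genes as bars below. Summits reach 42.7 for H3K4me3 and 99.8 for H3K27ac at UGT2B7, and a single H3K27ac summit of 4.25 lies among the genes from UGT2B11 to SULT1E1.

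Among the sulfotransferases, SULT1C2 of the SULT1C cluster had the highest H3K4me3 and H3K27ac scores at a boundary, with SULT1A3 close at 90.9 for H3K27ac. The highest H3K4me1 score at a boundary was 13.4, at SULT1A4. SULT1C2 (chr2:108288895-108309915) had H3K4me3 at 42.7, H3K27ac at 91.0 and H3K4me1 at 6.29 at its start, with the H3K27ac score at percentile 96.3. SULT1C3 had H3K4me1 at 10.9 at its end and H3K27ac at 28.5 inside the gene, without H3K4me3. SULT1C4 had H3K27ac at 5.52 and H3K4me1 at 4.94 at its end, H3K27ac at 1.40 and H3K4me1 at 4.75 at its start, and H3K4me3 at up to 5.69 inside the gene, where the nearest such summit lay 1083 bp from a boundary. Over the 149 kb from SULT1C3 to SULT1C4 there were 4 H3K4me3, 33 H3K27ac and 41 H3K4me1 summits. The strongest of them, 114 for H3K27ac and 14.6 for H3K4me1, lay between SULT1C3 and SULT1C2.

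SULT1A3 (chr16:30199255-30204310) and SULT1A4 (chr16:29459913-29464966), which sulfate dopamine and other catecholamines, are near-identical copies. SULT1A3 had H3K27ac at 90.9, H3K4me3 at 6.13 and H3K4me1 at 8.90, and SULT1A4 had 66.2, 3.23 and 13.4. Each shares its window with a DNA endonuclease subunit gene, SLX1A at 1689 bp and SLX1B at 1693 bp, and lies within a noncoding readthrough gene that joins it to that neighbour. Both thus had the same order, a high H3K27ac score, a low H3K4me3 score and H3K4me1 alongside. Reads from such copies can be hard to place and their treatment is unstated, so the marks of these copies may not be separate observations. Within 2500 bp the best H3K4me3 score was 52.5 for SULT1A3 and 18.8 for SULT1A4. Over the whole gene with 1000 bp around it the scores stayed at 6.13 and 3.23. The higher summits thus lie over 1000 bp outside both genes and cannot be told apart from marks of neighbouring genes. The promoters are shown because they were identical over 250 upstream bases and held no CpG in the 150 bases printed (RefSeq, GRCh38.p14, plus strand, 5′ to 3′, CpG in capitals).
SULT1A3, chr16:30199105-30199254: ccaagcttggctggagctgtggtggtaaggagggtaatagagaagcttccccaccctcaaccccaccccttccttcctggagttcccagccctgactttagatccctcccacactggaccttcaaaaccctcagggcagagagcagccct
SULT1A4, chr16:29459763-29459912: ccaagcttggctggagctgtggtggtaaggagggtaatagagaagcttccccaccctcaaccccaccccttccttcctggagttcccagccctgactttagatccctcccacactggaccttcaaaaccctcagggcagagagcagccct
GSTP1, chr11:67583662-67583811: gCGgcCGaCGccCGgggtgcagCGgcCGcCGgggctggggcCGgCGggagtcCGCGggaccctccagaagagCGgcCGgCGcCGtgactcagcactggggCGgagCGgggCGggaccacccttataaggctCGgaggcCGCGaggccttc
GSTP1 is set beside them for its 36 CpG in the 300-base promoter window, the highest count of any member, and H3K27ac at 7.43. Other members did not follow this contrast, such as GSTZ1 with 33 CpG and H3K27ac at 77.2 and GSTM3 with 1 CpG and H3K27ac at 10.8.

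SULT6B1 (chr2:37167820-37196087) had the pair at the end of the gene, with H3K4me3 at 9.40 and H3K27ac at 37.3, and H3K27ac at 17.7 at its upper boundary, 409 bp from CEBPZOS. Its annotated start, 7417 bp inside that boundary, had no mark within 1000 bp. SULT2B1, the cholesterol sulfotransferase (chr19:48552172-48599427), had H3K4me1 at 3.99 at its start and was filled with summits further in, 3 of H3K4me3, 16 of H3K27ac and 18 of H3K4me1, with best scores of 14.9, 82.6 and 10.4. Its other boundary lies 534 bp from FAM83E. SULT1A1, the main phenol sulfotransferase of liver, had H3K4me3 at 7.44 and H3K27ac at 6.83 inside the gene and none at a boundary. SULT1A2, whose window is shared with SGF29, had H3K4me1 at 3.01. SULT2A1, which sulfates bile acids and DHEA in liver, SULT1B1, SULT1E1 and the brain enzyme SULT4A1 had no mark.

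The annotated start was available for 44 members, with 49 starts. At a start, H3K4me3 was found in 16 of 44 members (36.4%, 23.8 to 51.1) beside 62% of 15813 protein-coding genes with such an entry, H3K27ac in 20 (45.5%) beside 57.6%, and H3K4me1 in 12 (27.3%) beside 7.6%. The pair was found in 16 (36.4%, 23.8 to 51.1) beside 53.1%, and no mark in 20 (45.5%) beside 32.7%. For the pair the background share thus lay above the interval at starts, whereas it lay inside it at boundaries. By family the pair was found at the start of 9 of 16 glutathione transferases, 4 of 18 glucuronosyltransferases and 3 of 10 sulfotransferases. UGT2B7 and SULT6B1, which had the pair at a boundary, lacked it at the start, and GSTO1 gained it.

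The members' promoters were poor in CpG. The median was 4 CpG in the 300-base window, beside 21 over 22156 starts of protein-coding genes, with medians of 17 in glutathione transferases, 3 in glucuronosyltransferases and 1 in sulfotransferases. Of 28 member starts with 0 to 5 CpG, 9 had H3K4me3 (32.1%) beside 12.8% of all such starts, and 12 had H3K27ac (42.9%) beside 12.5%. Of 12 member starts with 16 or more CpG, 6 had H3K4me3 (50%) beside 77.6%, and 6 had H3K27ac (50%) beside 72.7%. The CpG-poor starts with H3K4me3, all of which also had H3K27ac, were those of GSTM3, GSTA1, SULT1C2, SULT1A3, SULT1A4, UGT1A8, UGT1A9, UGT1A3 and UGT2A3. Those with H3K27ac alone of these marks were UGT2B7, UGT1A4 and SULT1C4. The unmarked CpG-rich starts were those of GSTM1, GSTM2 and GSTM5 and the 3 starts of UGT8. Median CpG was 4 both at member starts with H3K4me3 and at those without, whereas over all genes it was 27 and 7. These are descriptions of few starts, several of which lie in 1 locus.

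**Figure D5:**
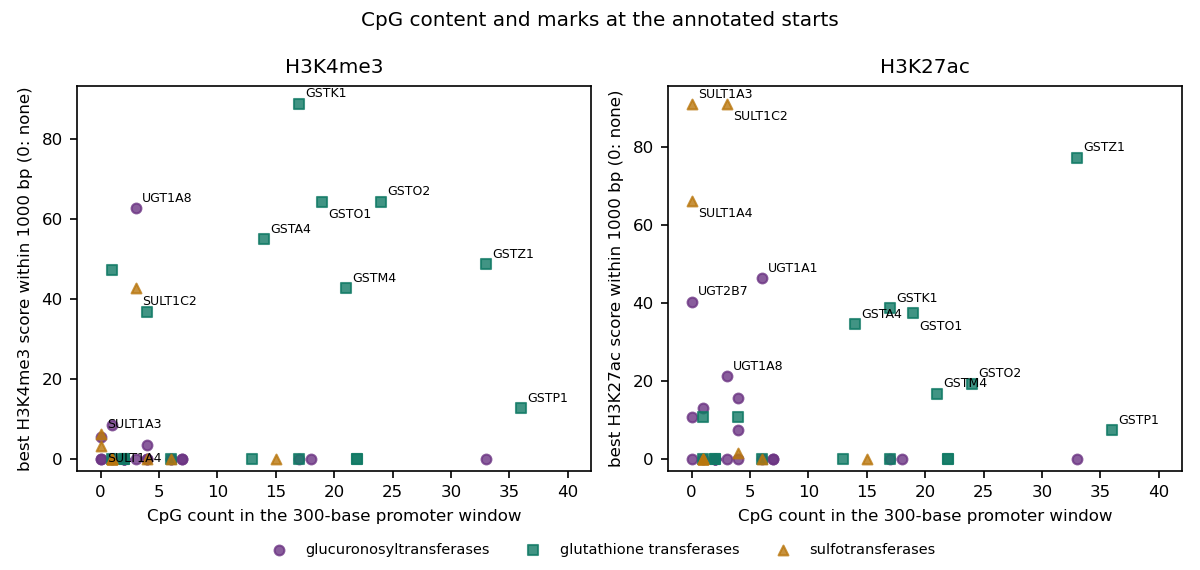
Best H3K4me3 score (left) and H3K27ac score (right) within 1000 bp of each of 49 annotated starts (vertical axes, authors' −log10 value, 0 where there is no summit) by the CpG count of the 300-base promoter window (horizontal axes). SULT1A3 and SULT1A4 have 0 CpG with H3K27ac at 90.9 and 66.2, GSTP1 has 36 CpG with H3K27ac at 7.43, and GSTZ1 has 33 CpG with H3K27ac at 77.2.

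Short motifs were counted on both strands of the same windows, from 250 bases before the start to 50 after it, and a match describes letters, not binding. The antioxidant response element core TGACNNNGC, bound by NRF2 with small MAF proteins, was found at 10 of 49 member starts (20.4%) beside 13.8% of all starts. Its members were GSTM1, GSTM5, SULT1C2, UGT1A6, UGT1A5, UGT2B10, UGT2B11, GSTA4, GSTO1 and GSTP1. Of these, SULT1C2, GSTA4, GSTO1 and GSTP1 had the pair at the start. The pair at a start was found in 36.4% of 44 members and 53.1% of all protein-coding genes, and a link to the motif was not tested. TATAAA was found at 12 member starts (24.5%) beside 9.46%. It lay 30 bases upstream in GSTA1 and GSTA2 and 29 in SULT1C3, SULT1B1 and SULT1E1. The other matches lay 81 to 248 bases upstream. The median share of G and C bases was 45.7% in member windows and 62.3% over all starts, and its part in this count was not tested. The xenobiotic response element core TNGCGTG, bound by the aryl hydrocarbon receptor, was found at 4 (8.16%) beside 6.28%. The AP-1 site TGANTCA was found at GSTP1 alone (2.04%) beside 6.16%, where it overlaps the match to TGACNNNGC.

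Of 1170 pairs of member starts, 10 were at least 70% identical over 250 upstream bases, and 5 of these 10 carried the same marks at both starts. The share with the same marks over all 1170 pairs was not taken, and 20 of 44 members had no mark at a start. SULT1A3 and SULT1A4 had the same marks and UGT2B10 and UGT2B11 both had none. Reads from close copies can be hard to place, so equal marks at SULT1A3 and SULT1A4 may not be separate observations. GSTA1 and GSTA2, UGT1A4 and UGT1A5, UGT1A3 and UGT1A5, UGT1A3 and UGT1A4, and UGT1A9 and UGT1A7 were the 5 that differed, with identities from 77.6% to 97.2%. GSTM1 and GSTM5, 86.0% identical, both had no mark at the start, and UGT2B15 matched UGT2B10 and UGT2B11 in having none.

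Genes that supply, remove or regulate the conjugates were counted for comparison, in lists chosen with earlier results of these data known. The pair at a boundary was found in 46 of 77 such genes (59.7%), beside 47.7% of all protein-coding genes. Over the whole gene both marks were found in 67 of the 77, beside 61.6% of all protein-coding genes. All 8 genes of sulfate donor supply had the pair, among them PAPSS1 (H3K4me3 42.04, H3K27ac 11.9) and PAPSS2 (66.1, 21.9), the PAPS synthases, and the transporters SLC35B2 (36.8, 16.7, sharing a window with HSP90AB1 and NFKBIE) and SLC35B3 (58.1, 19.3). Of 6 genes of UDP-glucuronic acid supply 4 had it, UGDH (87.5, 40.3), SLC35D1 (32.9, 24.5), SLC35B1 (68.7, 40.1) and SLC35A3 (51.8, 24.5). Of 10 genes of glutathione supply and reduction 6 had it, among them GCLM (9.40, 70.2), GSS (77.2, 31.8, sharing windows with ACSS2 and MYH7B), GSR (5.30, 73.9, with UBXN8) and SLC7A11 (64.4, 82.4). Further inside the gene, H3K4me3 was higher in GCLM, at 77.5, and in GSR, at 66.1.

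Of 9 genes of other glutathione transferases and related proteins 4 had the pair, MGST2 (H3K4me3 36.8, H3K27ac 40.3), PTGES (21.4, 41.0), LTC4S (12.0, 21.9, with MGAT4B) and GSTCD (63.2, 20.1, with INTS12). Of 13 other conjugation and detoxification enzymes 4 had it, among them TPMT (H3K4me3 54.9, H3K27ac 7.53, with KDM1B), HNMT (46.1, 41.5) and EPHX2 (28.2, 19.3). Among 6 conjugate hydrolases 5 had it, and among 9 export genes 5, with ABCC3 (75.9, 71.7, with ANKRD40) and ABCC4 (22.8, 13.1) among them. Among 16 regulators 10 had it, beginning with AHR (5.30, 51.0), ARNT (92.0, 80.8, with CTSK), RXRA (62.9, 28.7) and PPARA (50.3, 14.3, with CDPF1). Further inside the gene, AHR had H3K4me3 at 79.1. NFE2L2, which encodes NRF2 and was singled out after its values were seen, had H3K27ac at 103 at a boundary and H3K4me3 at 85.8 inside the gene.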

How the data were processed

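The tools named by the submitters' processing notes are MACS2, Bowtie, deepTools and Picard, with the build hg38; versions, settings and any control library are unstated. For each mark the authors deposited summits alone, whose score is a −log10 p-value or q-value, with no width or count. Summits on chromosomes 1 to 22 and X were used, written 1-based. Gene limits, annotated starts and promoter sequences came from RefSeq tables on GRCh38.p14, which shares hg38 coordinates. All 53 members matched by symbol, and 44 of the 52 placed had a promoter entry. A mark was called within 1000 bp of either gene boundary. Windows of 500 and 2500 bp, a score of at least 10, the whole gene, annotated starts, overlapping genes counted once and shared windows left out were alternatives. Shares have 95% Wilson intervals. Upstream bases were aligned globally with Biopython 1.88. Scripts ran in Python 3.11.15 with NumPy 2.4.6 and SciPy 1.17.1 and were tested on simulated data. Every member with H3K4me3 or H3K27ac at a boundary is named, members marked inside the gene alone have their best score, and unmarked members are named by family. From each list of related genes up to 4 with the pair are named, in the order written; some results are not reported here. Members and lists were chosen with earlier results of these data known.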

Additional observations from a re-analysis of the deposited data

How the results depend on the processing

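No paired analysis was possible because each mark had 1 library. Counts that moved by over 1.5 times were these. With a 500 bp window, H3K4me1 was at a boundary of 9 members (17.3%). The pair was then in 11 members (21.2%) and 1 glucuronosyltransferase (4.55%), beside 31.3% of all protein-coding genes. With a score of at least 10, H3K4me3 was left in 12 members (23.1%) and H3K4me1 in 3 (5.77%). The pair was then left in 11 members (21.2%), 3 glucuronosyltransferases (13.6%) and 1 sulfotransferase (7.69%), beside 40.5% of all protein-coding genes. Over the whole gene the pair was found in 28 members (53.8%), 12 glucuronosyltransferases (54.5%) and 7 sulfotransferases (53.8%), beside 61.6% of all protein-coding genes. With overlapping genes counted once, 3 of 13 glucuronosyltransferase loci had the pair. With members that share a window with another protein-coding gene left out, 1 of 8 sulfotransferases had it, SULT1C2. The share over all protein-coding genes was not taken for H3K4me3 or H3K4me1 with the 500 bp window or the score limit. It was also not taken with overlapping genes counted once or shared windows left out. The count of glutathione transferases with the pair stayed within 7 to 9 under every alternative run. The cause of these moves was not tested. Of 43 best scores at a boundary, 32 stayed, 1 moved and 10 lost their summit with the 500 bp window, 7 moved with 2500 bp and 10 over the whole gene. With 2500 bp these included H3K27ac of GSTM5 (57.4), GSTA1 (54.1) and SULT1C4 (20.8). Depth is unknown, so a mark that was not called may lie below the threshold of its list.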
